A study of Mus musculus with 168 samples.

Results

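Cortex of Q140 and Q111 heterozygous knock-in mice was compared at 10 months of age. These are 16 of the 168 libraries of a series on mouse models of Huntington's disease, 8 of Q140 and 8 of Q111, taken by the genotype and age in their titles. Both groups are C57BL/6 mice with 1 knock-in and 1 normal copy of Htt, 4 females and 4 males each, and no other allele or treatment is labelled. The names give the length of the CAG repeat, nominally 140 and 111 units. The same series holds Q175, Q92, Q80, Q20 and wild-type cortex at 2, 6 and 10 months, 8 libraries in each of 21 groups. Each knock-in mouse was housed with mice of its own allele, so that housing and allele cannot be told apart. Polyadenylated RNA was sequenced from dissected cortex, and each allele is a line of its own, with whatever else that line carries near the locus. The titles say no more of the replicates than sex and number. The library names also hold an L number and a stem that the 4 libraries of each allele and sex share. The labels used here do not say what either stands for. The p-values measure the spread between samples, estimated over all 56 libraries of 10 months and not over the 16 alone.

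Huntington's disease is caused by an expanded CAG repeat in the first exon of the huntingtin gene, which lengthens a run of glutamines near the start of the protein. Striatal projection neurons and cortical pyramidal neurons are the cells best known to be affected, and loss of transcripts that are abundant in striatal neurons is the usual signature in mouse models. Knock-in mice carry the expansion in their own Htt gene, under its own promoter, and so in the cells that normally use the gene. The start of the normal mouse coding sequence shows what the alleles lengthen. It is transcript ENSMUST00000080036 of GENCODE M21, on the plus strand of GRCm38 at chr5:34761907-34761996, and the capitals mark its run of 7 glutamine codons, of which 6 are CAG.
Htt coding start: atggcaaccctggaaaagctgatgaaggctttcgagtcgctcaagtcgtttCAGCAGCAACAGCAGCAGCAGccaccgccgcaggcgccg

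The 16 libraries hold 30140687 to 43260876 estimated counts. Levels below are CPM, that is counts scaled to a common library size with TMM factors. All 16 expressed cortical markers, with Slc17a7, the vesicular glutamate transporter of cortical pyramidal neurons, at 936 to 1025 CPM in Q140 and 925 to 1183 CPM in Q111, and sex transcripts followed the labelled sex. On the 3 measures given next, 5 libraries stood apart from the others: correlation, habenular and thalamic transcripts, and oligodendrocyte markers. Q140 female 3 had a median correlation of 0.987 with the other 10-month libraries, the lowest of that age. Q140 males 2 and 3 carried 75.3 and 61.4 CPM over 12 transcripts of medial habenula and thalamus (such as Pou4f1, Chrnb4, Chrna3 and Tcf7l2, a list chosen after the values were seen), against 28.9 to 33.8 CPM in the other Q140 libraries and 30.2 to 32.99 CPM in the Q111 libraries. Q111 male 4 had 3089 CPM over 24 oligodendrocyte markers and Q111 male 3 had 4981 CPM, against 5383 to 6024 CPM in Q140 and 5247 to 5683 CPM in the remaining Q111 libraries. The other libraries were not uniform either. Choroid plexus markers summed to 39.2 to 2143 CPM in Q140 and 24.4 to 2222 CPM in Q111. They stood at 1635 CPM in Q140 female 1 and 1678 CPM in Q111 male 1, which are not among the 5.

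Few genes separated the longer from the shorter allele. Of 17219 genes tested, 5 passed an adjusted p of 0.05 in edgeR's quasi-likelihood test with Benjamini-Hochberg adjustment, which is 0.029%. Of these, 4 were lower in Q140 (0.0232%): Arpp21, Olfr78, Qrfpr and the non-coding RNA 6030443J06Rik. One, Shox2, was higher in Q140 (0.00581%), and its level came from 2 libraries. At an unadjusted p under 0.05 there were 846 genes (4.91%), 408 of them higher and 438 lower in Q140. Differences are log2 values of Q140 minus Q111 from the fit, with a standard error (SE) equal to the difference divided by the root of its F statistic.

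Arpp21 encodes a cAMP-regulated phosphoprotein that binds RNA and is abundant in striatal and cortical neurons. The gene lies on chromosome 9, 112065091 to 112235938 on the minus strand of GRCm38, the build of all positions given here. Its 8 Q140 libraries had 308 CPM at the lowest, 339 at the median and 352 at the highest, against 365, 383 and 422 CPM in the 8 Q111 libraries. Every Q140 library lay below every Q111 library. The difference was -0.21 with an SE of 0.04 (adjusted p = 0.0298, edgeR), a fold of 0.866. Means were 334 ± 14.2 CPM in Q140 and 386 ± 21.5 CPM in Q111 (SD, n = 8 each). In a bulk sample, fewer cells of a type and less RNA per cell cannot be told apart, here and for every gene below.

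The other protein-coding genes that were lower in Q140 encode G protein-coupled receptors, and both lie at a few CPM. Qrfpr encodes the receptor of the neuropeptide QRFP (chromosome 3, 36179424 to 36222313, minus strand). It had 1.82 CPM at the lowest, 2.40 at the median and 3.09 at the highest in Q140, against 3.36, 3.57 and 4.78 CPM in Q111. The groups did not overlap, and Q111 male 3 was the highest library. Its difference was -0.57 with an SE of 0.12 (adjusted p = 0.0301, edgeR). Olfr78, of the olfactory receptor family and also expressed outside the nose (chromosome 7, 102738511 to 102759471, minus strand), had 2.87, 3.98 and 4.35 CPM as the lowest, median and highest value in Q140, against 4.18, 5.73 and 6.30 CPM in Q111. The groups overlapped only at their edges, where Q140 female 2 and male 1 lay above Q111 male 4. Its difference was -0.52 with an SE of 0.10 (adjusted p = 0.0298, edgeR).

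6030443J06Rik is annotated as a long intergenic non-coding RNA on chromosome 5, 22550432 to 22807850 on the plus strand of GRCm38, 12.2 Mb before Htt. It had 0.393, 0.631 and 0.909 CPM as the lowest, median and highest value in Q140. In Q111, 7 libraries had 1.39 to 1.99 CPM and male 3 had 0.415 CPM. Apart from that male, which sat among the Q140 libraries, the groups did not overlap. The difference was -1.22 with an SE of 0.24 (adjusted p = 0.0298, edgeR), and without Q111 male 3 it was -1.36 (adjusted p = 0.00151).

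Shox2 encodes a homeobox transcription factor of the developing thalamus, limb and heart (chromosome 3, 66971727 to 66981771, minus strand). It had 4.86 CPM in Q140 male 2 and 2.58 CPM in Q140 male 3, and 0.0330 to 0.237 CPM in the other 6 Q140 libraries, against 0.0236 to 0.248 CPM in the 8 Q111 libraries. Apart from those males, the Q140 libraries lay within the Q111 range. The difference was 3.14 with an SE of 0.63 (adjusted p = 0.0298, edgeR), and without Q140 males 2 and 3 it was 0.33 with an SE of 0.47 (adjusted p = 1). These are the same 2 libraries that were high in habenular and thalamic transcripts. That list was chosen after the values were seen and holds Shox2 itself, so the 2 observations are not separate.

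The calls were fragile. Fits that left out 1 library gave 0 calls without Q111 female 1, female 2, female 4 or male 1, or without Q140 male 2 or male 3; 1 call without Q111 male 3; 2 without Q111 male 4; and 3 without Q140 female 2 or female 4. Without Q140 males 2 and 3 together there were 0 calls, with 634 genes at an unadjusted p under 0.05 (1.56% of genes higher and 2.1% lower). In that fit Arpp21 stood at -0.19 with an adjusted p of 0.336 in edgeR. The sign of each of the 5 called genes was the same in every fit that tested it.

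**Figure D1:**
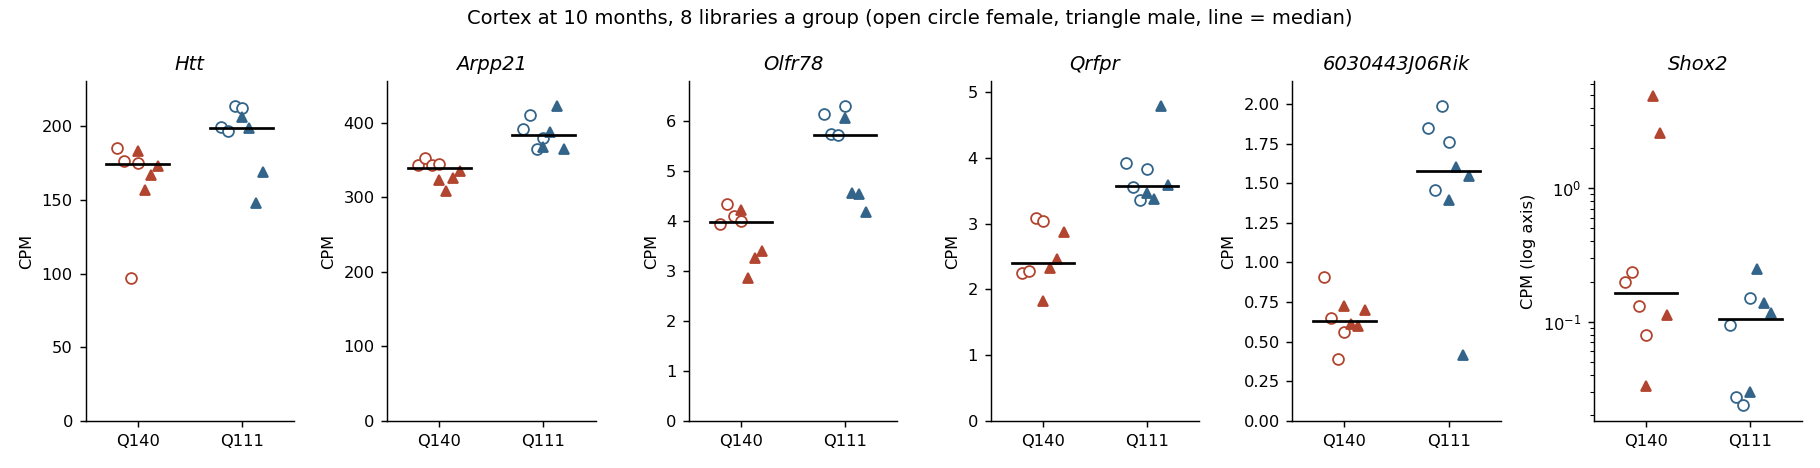
Level in CPM of Htt and the 5 called genes in each 10-month library, Q140 left and Q111 right, with open circles for females, triangles for males, a line at the median and a log axis for Shox2 alone. The 8 Q140 libraries lie below the 8 Q111 libraries for Arpp21 and Qrfpr, 1 Q111 library lies with Q140 for 6030443J06Rik, and 2 Q140 libraries carry the signal of Shox2.

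Without overlap between all 8 Q140 and all 8 Q111 libraries there were 5 genes (0.029%), each lower in Q140, and none was higher. Besides Arpp21 and Qrfpr these were Trmt5, Krt77 and Gm14494, which are named here because of their values. Trmt5, a tRNA methyltransferase, had 7.77 to 8.57 CPM in Q140 and 8.64 to 10.0 CPM in Q111, a difference of -0.15 with an adjusted p of 0.53 in edgeR. Krt77, a keratin, had 4.81 to 6.11 CPM in Q140 and 6.27 to 8.66 CPM in Q111. Gm14494 had 0 to 0.165 CPM in Q140 and 0.193 to 0.745 CPM in Q111. None of these last 3 passed the test.

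The genes next in order did not pass in edgeR with all 16 libraries. Of those described in this and the next paragraph, DESeq2 called Gsg1l, Otof, Slc39a10 and Cd109, and voom with quality weights called Gsg1l, Slc39a10, Rasgrf2 and Zfpm2. Gsg1l, an auxiliary subunit of AMPA-type glutamate receptors, had 66.6 to 84.6 CPM in Q140 and 82.0 to 96.2 CPM in Q111, a difference of -0.22 with an SE of 0.05 (adjusted p = 0.0704, edgeR). Only Q140 female 1 reached into the Q111 range. The zinc importer gene Slc39a10 differed by -0.19 with an SE of 0.04 (adjusted p = 0.112). Otof, which encodes the calcium sensor otoferlin and is named here because of its values, had 15.1 to 24.9 CPM in Q140 and 22.7 to 37.0 CPM in Q111 (difference -0.53, SE 0.12, adjusted p = 0.13). Rasgrf2, an upper-layer marker and Ras exchange factor, had 174 to 235 CPM in Q140 and 212 to 253 CPM in Q111 (difference -0.19, adjusted p = 0.13).

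On the higher side, Cd109, a surface protein that binds TGF-beta, had 0.628 to 2.16 CPM in Q140 and 0.584 to 1.03 CPM in Q111. Q140 males 2 and 3 held its 2 highest values, 2.16 and 1.95 CPM, and the difference was 0.81 with an SE of 0.18 (adjusted p = 0.0972, edgeR). Zfpm2, a cofactor of GATA factors and a marker of corticothalamic neurons, had 13.7 to 16.5 CPM in Q140 and 11.3 to 15.7 CPM in Q111 (difference 0.21, SE 0.05, adjusted p = 0.12). The ubiquitin ligase adaptor gene Spsb1 had 17.66 to 24.15 CPM in Q140 and 14.8 to 18.4 CPM in Q111 (difference 0.29, adjusted p = 0.13). Chrnb4, the nicotinic beta-4 subunit of the medial habenula, had 4.30 CPM in Q140 male 3 and 2.04 CPM in Q140 male 2, 0.0330 to 0.523 CPM in the other Q140 libraries and 0.0277 to 0.503 CPM in Q111 (difference 2.42, adjusted p = 0.157).

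Htt itself was measured at 97.3 CPM in Q140 female 3 and at 156 to 185 CPM in the other 7 Q140 libraries, with a median of 174 CPM over all 8, against 148 CPM in Q111 male 3, a median of 199 CPM and a highest value of 214 CPM in Q111. The groups overlapped through Q111 males 3 and 4. The difference was -0.23 with an SE of 0.08 and did not pass (adjusted p = 0.618, edgeR), and without Q140 female 3 it was -0.14. Reads are summed over both copies of Htt, so that these values do not separate the knock-in from the normal copy.

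**Figure D2:**
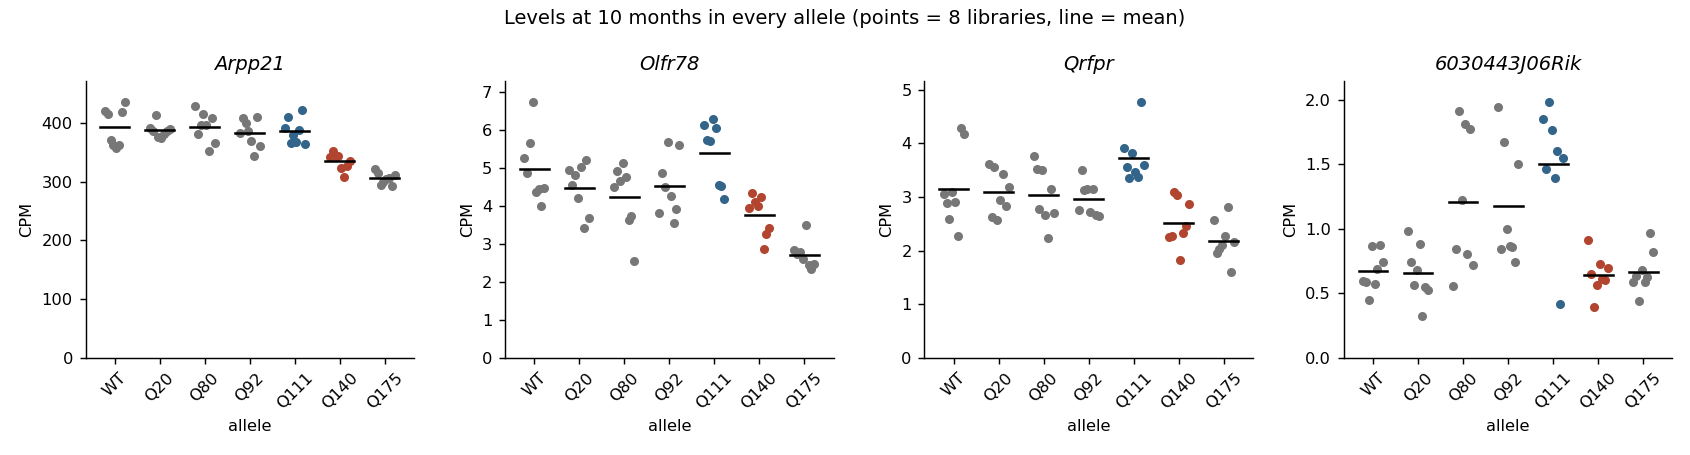
Levels in CPM at 10 months of 4 of the called genes over wild type and the 6 alleles in order of repeat length, with a point for each of 8 libraries and a line at the mean. The mean of Arpp21 is lower in Q140 and Q175 than in the other groups, though Q92 male 2, at 344 CPM, lies within the Q140 range. 6030443J06Rik forms a high and a low band within Q80, Q92 and Q111.

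Set against the other alleles of the same age, the called genes took different orders. Arpp21 averaged 393 CPM in wild type, 387 in Q20, 393 in Q80, 382 in Q92, 386 in Q111, 334 in Q140 and 306 in Q175. The means of the 5 groups up to Q111 differed by less than the SD of Q111. Q140 minus Q20 was -0.21 (adjusted p = 0.0085, in a fit that called 0.128% of genes), while Q111 minus Q20 was -0.01 (adjusted p = 1, where 0.0232% were called). Those fits share the Q20 libraries with each other and the Q140 or Q111 libraries with the main comparison, so they are given side by side only.

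For the receptor genes the Q111 group was the highest of all 7. Olfr78 averaged 4.98 CPM in wild type, 4.49 in Q20, 4.24 in Q80, 4.53 in Q92, 5.40 in Q111, 3.77 in Q140 and 2.71 in Q175. Q140 minus Q20 was -0.26 and Q111 minus Q20 was 0.26, and neither passed (adjusted p = 0.785 and 1, edgeR). Qrfpr averaged 3.16 CPM in wild type, 3.10 in Q20, 3.04 in Q80, 2.97 in Q92, 3.73 in Q111, 2.52 in Q140 and 2.19 in Q175, with differences from Q20 of -0.30 for Q140 and 0.27 for Q111 (adjusted p = 0.747 and 1). The called difference of both genes adds a lower mean in Q140 to a higher mean in Q111.

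At younger ages the called genes that could be tested did not pass. At 6 months Arpp21 had 394 ± 17.3 CPM in Q140 and 410 ± 10.3 CPM in Q111 (SD, n = 8 each), a difference of -0.06 with an SE of 0.03 (adjusted p = 0.365, edgeR), and at 2 months the difference was -0.06 (adjusted p = 1). Olfr78 differed by 0.06 at 6 months and 0.02 at 2 months, and Qrfpr by 0.01 and -0.17, and none of these passed. 6030443J06Rik differed by -0.87 with an SE of 0.28 at 6 months and by -1.18 with an SE of 0.28 at 2 months, at unadjusted p-values of 0.00277 and 0.000128 (adjusted p = 0.132 and 0.736).

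The difference between ages was tested by an interaction of 10 with 6 months, which called 74 of 17834 genes (0.415%), 10 higher (0.0561%) and 64 lower (0.359%), and the smallest p-values were those of liver transcripts such as Apoa2 and Cps1. Qrfpr was among them, with a difference of differences of -0.58 and an SE of 0.14 (adjusted p = 0.0175, edgeR), and so was Olfr78 with -0.58 and an SE of 0.14 (adjusted p = 0.0331). Chrnb4, which rests on Q140 males 2 and 3, had 3.22 (adjusted p = 0.0185). Arpp21 had -0.15 with an SE of 0.05 and did not pass (adjusted p = 0.192). The 6-month libraries carried liver transcripts unequally, with Alb, the albumin gene, at 20.1 to 355 CPM in Q140 and 0 to 3.98 CPM in Q111, and the leading numbers of their library names form a block for each allele, so that library series and allele cannot be told apart at that age.

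Taken alone, 6 months called 217 of 17611 genes (1.23%), 171 of them higher in Q140 (0.971%), and 2 months called 0 of 17194 (0%), with 425 genes (2.47%) at an unadjusted p under 0.05 in edgeR and 0 called by DESeq2. Htt was lower at 6 months, with 179 to 199 CPM in Q140 and 196 to 227 CPM in Q111 (difference -0.17, SE 0.04, adjusted p = 0.00526). At 2 months it had 156 to 188 CPM in Q140 and 183 to 217 CPM in Q111 (difference -0.22, adjusted p = 1). Zfpm2 was higher at 6 months, with 11.7 to 15.7 CPM in Q140 and 10.7 to 12.9 CPM in Q111 (difference 0.20, SE 0.05, adjusted p = 0.0324), close to its size at 10 months, where it did not pass.

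Lists of genes by cell type and pathway were described by their counts and medians, beside those of all genes: at an unadjusted p under 0.05, 2.37% of all genes were higher and 2.54% lower in Q140, and the median difference of all genes was 0.002. The shares of all genes changed where libraries were left out. They were 1.56% higher and 2.1% lower without Q140 males 2 and 3, and 1.04% and 1.71% without all 5 libraries. Without Q111 males 3 and 4 they were 3.29% and 3.38%. Counts of list members in those fits stand beside these shares. Apart from Arpp21 in the striatal list and Shox2 among developmental transcription factors, no member of the 35 lists passed the adjusted threshold in edgeR, so members given as higher or lower below have unadjusted p-values under 0.05 and were not called by it. Voom with quality weights called Rasgrf2 among them.

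Markers of striatal projection neurons, the cells most affected in the disease, had a median of -0.087, with 18 of 22 members negative. Besides Arpp21, only Penk, the enkephalin precursor, had an unadjusted p under 0.05. It had 21.1 to 31.2 CPM in Q140 and 24.7 to 53.9 CPM in Q111, where males 3 and 4 held the 2 highest values (difference -0.44, SE 0.18, adjusted p = 0.835, edgeR). Without Q111 males 3 and 4 the median of the striatal list was -0.020, and without all 5 libraries that stood apart it was 0.019. Drd1, the dopamine receptor of one class of these neurons, had 10.3 to 13.01 CPM in Q140 and 10.0 to 16.2 CPM in Q111.

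Genes of cAMP, calcium and opioid signalling had 8 of 29 members lower in Q140 and none higher at an unadjusted p under 0.05, with 24 negative and a median of -0.051. Among the 8 were Prkca, a protein kinase C (-0.14, SE 0.05), Gnal, the G protein that couples dopamine receptors to adenylyl cyclase (-0.14, SE 0.05), the kinase genes Camk2a and Camkk2 and the kappa opioid receptor gene Oprk1 (-0.32, SE 0.15). Without Q140 males 2 and 3 the count was 2 and without all 5 libraries it was 0. Synaptic vesicle genes had 5 of 20 lower and none higher, with a median of -0.037; Cplx2, a complexin, had 914 to 1091 CPM in Q140 and 1041 to 1182 CPM in Q111 (-0.12, SE 0.03), and Snap25, a vesicle fusion protein, differed by -0.14 (SE 0.06). That count was 1 without Q140 males 2 and 3 and 0 without all 5 libraries.

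Receptor and channel genes had small negative medians that rested in part on the libraries that stood apart. Among GABA receptor and transporter genes 3 of 16 were lower (Gabra3, Gabra2 and Gabrd), with 14 negative and a median of -0.051. Among glutamate receptors 1 of 22, Gria3, was lower (-0.12, SE 0.04), with a median of -0.060, and among potassium channels 3 of 44 were lower (Kcnj16, Kcnv1 and Kcnh7), with 33 negative and a median of -0.036. None of these lists had a member higher at that threshold. Without all 5 libraries none of the 3 lists had a member lower, and the medians were -0.015 for GABA, -0.026 for glutamate and -0.010 for potassium genes. Without Q140 males 2 and 3 and female 3, 25 of the 44 potassium channels were positive, with a median of 0.012. Q140 female 3 had summed levels of 2497 CPM for glutamate receptors and 3843 CPM for potassium channels, against 3009 to 3258 CPM and 4400 to 4780 CPM in the other Q140 libraries. Postsynaptic density genes had 1 of 20 higher, the scaffold gene Homer3 (0.25, SE 0.08), and none lower.

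Cholesterol synthesis genes had 24 of 25 members negative, with a median of -0.046. There were 6 lower at an unadjusted p under 0.05 and none higher, among them the synthesis genes Dhcr7, Tm7sf2 and Nsdhl, Acat2 and the cholesterol carrier gene Stard4. Dhcr7, which encodes the last reductase of the pathway, had 25.75 to 29.59 CPM in Q140 and 27.94 to 34.76 CPM in Q111, with overlap (-0.12, SE 0.05, adjusted p = 0.909, edgeR). Without all 5 libraries 2 of 25 were lower and the median was -0.040, close to its value with them.

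Layer markers went both ways. Of 12 upper-layer markers 3 were lower at an unadjusted p under 0.05 (Rasgrf2, Wfs1 and Lamp5) and none was higher, and of 12 deep-layer markers 3 were higher (Fezf2, Syt6 and Ntsr1) and none was lower. Wfs1, which encodes wolframin of the endoplasmic reticulum, had 56.01 to 88.24 CPM in Q140 and 75.7 to 103 CPM in Q111 (-0.30, SE 0.09, adjusted p = 0.447). The summed level of the upper-layer markers was 1015 to 1110 CPM in Q140 and 1113 to 1179 CPM in Q111, while other groups of that age spanned 896 to 1248 CPM. Q140 and Q111 did not overlap, but by a narrow margin, 1110 against 1113 CPM. It is singled out because of its values, since the sums of every other list overlapped between Q140 and Q111. Without all 5 libraries 2 of the upper-layer markers were lower and 0 of the 12 deep-layer markers were higher, and without Q140 males 2 and 3 alone 1 deep-layer marker was higher. Reln, which encodes the secreted protein reelin and is in the interneuron list, had 56.4 to 86.0 CPM in Q140 and 71.5 to 92.6 CPM in Q111 (-0.26, SE 0.08, adjusted p = 0.372).

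Among glial lists the myelin list had the highest median, against 0.022 for astrocyte, 0.030 for microglia and 0.011 for oligodendrocyte precursor markers. All 24 oligodendrocyte and myelin markers were positive in Q140, with a median of 0.129, and 9 of them were higher at an unadjusted p under 0.05 and none lower. Mag, a myelin adhesion protein, had 125 to 155 CPM in Q140, against 75.4 CPM in Q111 male 4 and 115 to 134 CPM in the other Q111 libraries (0.21, SE 0.07, adjusted p = 0.409, edgeR). Without Q111 males 3 and 4, 3 of 24 were higher and the median was 0.058. Without all 5 libraries 0 of 24 were higher, and the median was 0.014.

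Among 18 gliosis genes 3 were higher at an unadjusted p under 0.05 and none lower: complement C4b, the protease inhibitor gene Serpina3n and Gfap, the astrocytic intermediate filament. Gfap had 126 and 133 CPM in Q140 males 2 and 3 and 89.3 to 103 CPM in the other Q140 libraries, against 79.8 to 105 CPM in Q111 (0.21, SE 0.08, adjusted p = 0.826). Without Q140 males 2 and 3, and likewise without all 5 libraries, 1 of the 18 gliosis genes was higher. Of 20 microglia markers 1, Tmem119, was higher and none was lower. Lists of endothelial, blood, respiratory chain, mitochondrially encoded, heat shock, stress response, p53 target, beta protocadherin, oligodendrocyte precursor, choroid plexus, liver and mismatch repair genes had no member under that threshold in either direction.

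The mismatch repair list is of interest because its genes set how fast the CAG repeat lengthens in tissue; its median was -0.001 over 18 genes, from -0.10 to 0.10. Immediate early genes, which neuronal activity switches on, had 17 of 20 positive and a median of 0.202 with none under the threshold, and their summed levels ranged from 864 to 1720 CPM in Q140 and 761 to 1534 CPM in Q111. Clock genes had 3 of 18 higher (Bhlhe41 and Ciart among them), interferon-stimulated genes 1 of 24 (Ifit1), and astrocyte markers 2 of 16 (Gjb6 and Gfap), with none lower in these lists. The clock count was 0 of 18 without Q140 males 2 and 3 and without all 5 libraries, and the astrocyte count was 1 of 16 and 0 of 16 in those fits. Among 12 glutamatergic neuron markers 1 was higher (Slc17a6) and 2 were lower (Camk2a and Sv2b), and of 17 huntingtin partner and trafficking genes Htt alone was lower.

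Of the lists of neighbouring brain regions, the hippocampal and thalamic ones had higher medians in Q140, while that of the striatal list was negative (-0.087). Of 10 hippocampal markers 6 were higher and 1, Wfs1, lower, with a median of 0.401, and of 10 thalamic markers 5 were higher and none lower, with a median of 0.178. Without Q140 males 2 and 3 these counts of higher markers were 1 and 0, and the medians 0.144 and 0.005. Of 10 developmental transcription factors tested Shox2 was called and 2 more, En2 and Foxd1, had unadjusted p-values under 0.05. A list of 10 transcripts of meningeal fibroblasts, chosen after the values were seen, summed to 77.3 to 175 CPM in Q140 and 60.8 to 150 CPM in Q111, and 6 of dentate gyrus, chosen likewise, to 128 to 178 CPM in Q140 and 133 to 168 CPM in Q111. How the cortex was cut is not described in the labels.

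**Figure D3:**
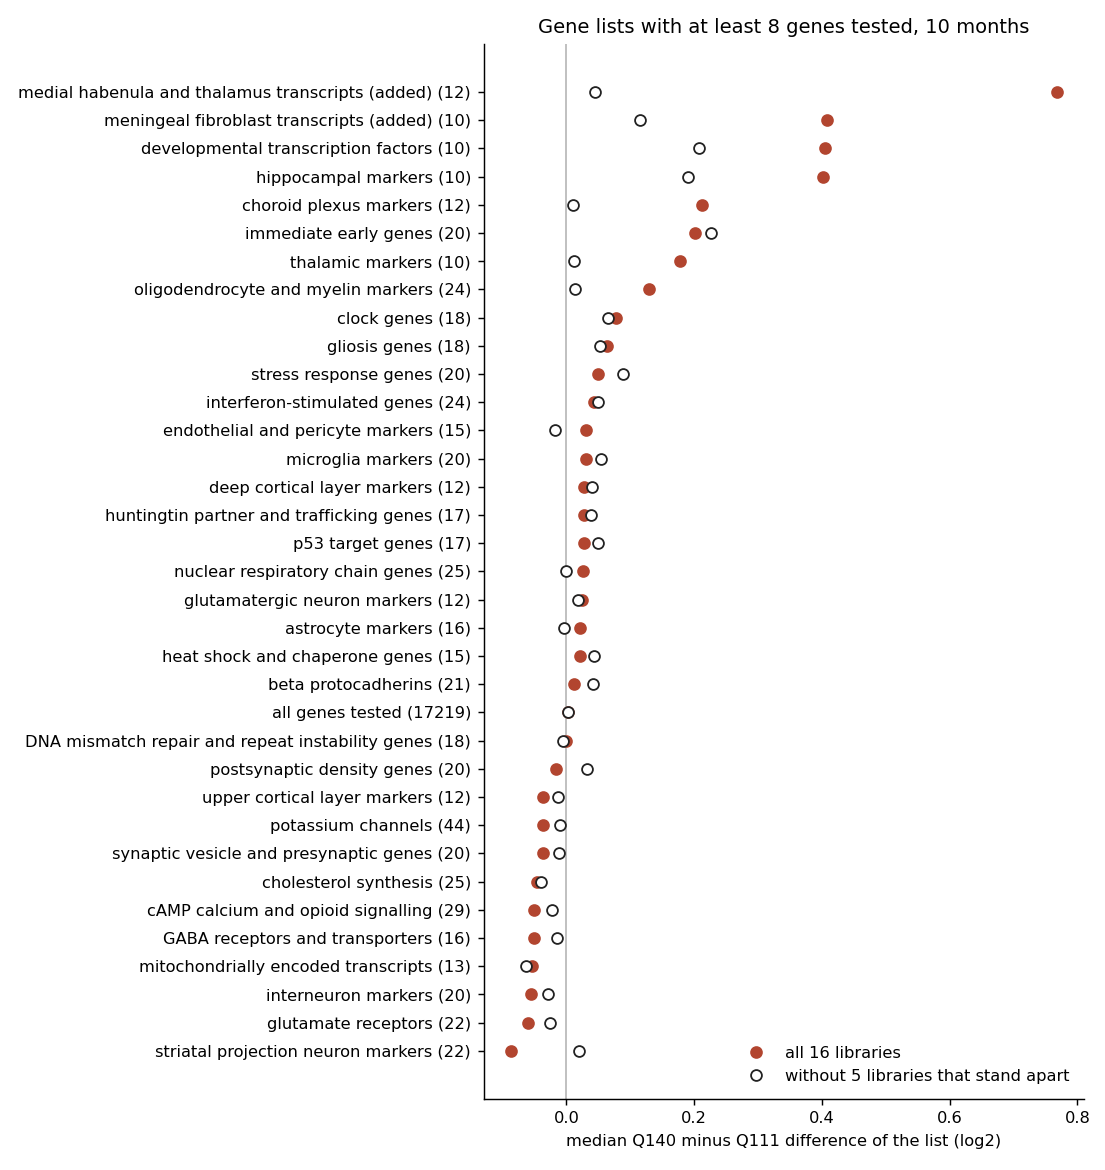
Median log2 difference of Q140 minus Q111 at 10 months of the gene lists, with all libraries and without the 5 libraries that stood apart; lists marked as added were chosen after the values were seen. The myelin median lies at 0.129 with all libraries and at 0.014 without the 5, while the cholesterol median lies at -0.046 and -0.040.

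**Figure D4:**
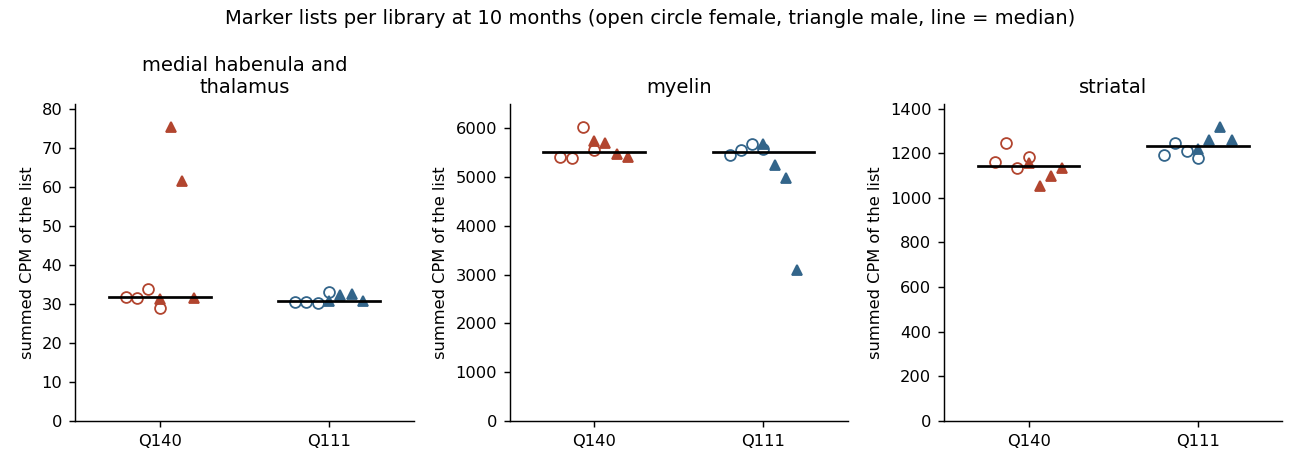
Summed level in CPM of marker lists in each 10-month library, Q140 left and Q111 right, with open circles for females, triangles for males and a line at the median. Q140 males 2 and 3 stand at 75.3 and 61.4 CPM for the habenular and thalamic transcripts, and Q111 male 4 at 3089 CPM for the oligodendrocyte markers.

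Within one sex the comparison is 4 against 4. In males 12 genes were called (0.0697%), 9 higher (0.0523%) and 3 lower (0.0174%) in Q140. The 9 were Zfpm2 (0.35, SE 0.06, adjusted p = 0.0117, edgeR), Shox2, Chdh, Olfml2b, Prox1, Gpr151, Chrna3, Tcf7l2 and Pou4f1, among which Pou4f1 (3.05, SE 0.66), Gpr151 (1.63, SE 0.32) and Chrna3 are known from the medial habenula, Tcf7l2 (1.03, SE 0.21) from thalamus and Prox1 (0.76, SE 0.15) from dentate gyrus. The 3 lower were Cpne5, Gsg1l (-0.32, SE 0.06, adjusted p = 0.0211) and Slc18b1. Without Q140 males 2 and 3 no gene was called in males, with 1056 genes (6.1%) at an unadjusted p under 0.05, against 1289 (7.49%) with them.

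In females no gene was called (0%), with 1460 genes (8.48%) at an unadjusted p under 0.05. The test of the difference between the sexes itself called 0 genes (0%) in edgeR, with 2263 (13.1%) at an unadjusted p under 0.05, and 1 in DESeq2. Arpp21 differed by -0.16 with an SE of 0.06 in females and by -0.25 with an SE of 0.06 in males, and the interaction was 0.09 with an SE of 0.08. Without all 5 libraries the interaction called 0 genes, with 349 (2.01%) at an unadjusted p under 0.05.

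Because each allele is its own line, genes near Htt on chromosome 5 were examined by distance. At an unadjusted p under 0.05 there were 9 of 120 genes within 5 Mb of Htt (7.5%), 12 of 128 from 5 to 20 Mb (9.38%, with 6030443J06Rik the 1 called), 38 of 788 over the rest of the chromosome (4.82%) and 787 of 16183 on other chromosomes (4.86%). Wfs1 lies 2.2 Mb after Htt and Otof 4.39 Mb before it.

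Near 6030443J06Rik, 3 more genes had levels that ran opposite to it between Q140 and most Q111 libraries, high where it was low; they were chosen for that after their values were seen. Within Q140 this did not hold throughout, since female 3 had the lowest level of both 6030443J06Rik (0.393 CPM) and Rint1 (14.5 CPM). Rint1, which acts in vesicle tethering between the endoplasmic reticulum and the Golgi apparatus, lies 11 Mb before Htt and had 14.5 to 18.5 CPM in Q140, against 16 CPM in Q111 male 3 and 14.1 to 15.8 CPM in the other Q111 libraries (0.16, SE 0.04, adjusted p = 0.31, edgeR). The processed pseudogene 4933427G23Rik, which overlaps the end of Rint1, had 0.503 to 0.860 CPM in Q140, against 0.581 CPM in Q111 male 3 and 0.125 to 0.403 CPM in the others (1.03, SE 0.25, adjusted p = 0.13). Neither passed in edgeR, but voom with quality weights called both Rint1 and 4933427G23Rik. Limma on log2(FPKM + 0.1) and on log2(FPKM + 1), each with a filter, called 4933427G23Rik. Whether strand was used in counting is not given in the sources used here, so reads of this pair cannot be told apart. Klhl7, an adaptor of a cullin ubiquitin ligase, had 84.7 to 91.9 CPM in Q140, against 90 CPM in Q111 male 3 and 78.1 to 84.2 CPM in the others. At all 4 genes Q111 male 3 lay on the Q140 side.

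Over the 3 ages, 6030443J06Rik was under 1 CPM in 24 of 24 Q140 libraries and in 4 of 24 Q111 libraries. The low Q111 libraries were male 3 at 10 months, female 3 with 0.366 CPM and male 2 with 0.587 CPM at 6 months, and male 4 with 0.789 CPM at 2 months. At 6 months the low pair had 17.1 and 18.6 CPM of Rint1 and 84.3 and 81.9 CPM of Klhl7, against 13.8 to 15.9 CPM and 67.8 to 80.1 CPM in the other Q111 libraries of that age. At 2 months male 4 had 93.2 CPM of Klhl7, the highest of Q111. Its 16.4 CPM of Rint1 lay within the Q111 range of 14.3 to 17.1 CPM. In Q175 at 10 months both 6030443J06Rik and 4933427G23Rik were low, with medians of 0.631 and 0.416 CPM, against 1.58 and 0.386 CPM in Q111. Of the other groups, Q175 and wild type had 24 of 24 libraries under 1 CPM each, Q20 had 21, Q92 had 15 and Q80 had 10 of 24. The levels of 6030443J06Rik therefore split within Q80, Q92 and Q111 as well as between alleles. Rint1 did not run opposite to it in every low library. Of the 4 Q80 libraries under 1 CPM at 2 months, female 3 and male 5 had 10.4 and 11.7 CPM of Rint1, the lowest of that group. Males 1 and 2 had 17.5 and 17.2 CPM, the highest of it. What sets these levels was not tested.

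A last comparison sets the members beside a contrast of 2 groups that hold none of their libraries, Q175 minus Q20 at 10 months. Both contrasts come from the same fit of 56 libraries. The Q140 and Q111 libraries thus enter the filter, scaling and spread behind its p-values. The Q175 line arose from the Q140 line by lengthening of its repeat. The contrast called 1310 of 17219 genes (7.61%), 495 higher (2.87%) and 815 lower (4.73%) in Q175. Arpp21 was lower in Q175 by 0.34 (adjusted p = 7.27e-09, edgeR), Olfr78 by 0.73 (adjusted p = 1.83e-06) and Qrfpr by 0.50 (adjusted p = 0.00316). 6030443J06Rik stood at 0.04 (adjusted p = 0.963) and Shox2 at 1.76 (adjusted p = 0.0746), where all 8 Q175 libraries had 0.334 to 0.653 CPM of Shox2 and Q20 averaged 0.155 CPM.

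Some of the genes named above that did not pass in edgeR in Q140 against Q111 are given for Q175 minus Q20 as well. Gsg1l was lower in Q175 by 0.44 (adjusted p = 1.43e-09), Otof by 0.84 (adjusted p = 4.06e-06), Rasgrf2 by 0.32 (adjusted p = 6.25e-07), Slc39a10 by 0.20 (adjusted p = 0.0011), Wfs1 by 0.78 (adjusted p = 3.17e-08) and Htt by 0.33 (adjusted p = 0.00458). On the higher side Spsb1 was higher by 0.25 (adjusted p = 0.0174), and Zfpm2 stood at 0.06 and Chrnb4 at -0.39, neither of which passed. Cd109 at 0.34 (adjusted p = 0.281, edgeR) and Rint1 at 0.06 (adjusted p = 0.454) did not pass either. Chrna3 at -0.26 (adjusted p = 0.807) and 4933427G23Rik at -0.315 (adjusted p = 0.525) had the opposite sign and did not pass. Pou4f1, a transcription factor of the habenula named because of its values, was higher by 3.35 (adjusted p = 0.000456), with 0.152 to 0.647 CPM over the 8 Q175 libraries, whereas in Q140 it had 1.55 and 1.15 CPM in males 2 and 3 and 0 to 0.112 CPM in the other 6.

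Over all 17219 genes, 53.7% had the same sign in both contrasts. Among the 846 genes with an unadjusted p under 0.05 in Q140 against Q111 the share was 72.0%, and it was 79.2% of the 438 lower and 64.2% of the 408 higher genes. Of the lower ones 127 were called lower in Q175, and of the higher ones 37 were called higher. At an unadjusted p under 0.001 the share was 35 of 45 genes, with 21 of 25 lower and 14 of 20 higher. Without all 5 libraries it was 65.4% of 468 genes, beside 55.1% of all genes, and without Q111 males 3 and 4 it was 58.3% of 1148, beside 46.7%. The same contrast at 6 months, in other libraries of the same alleles, shared the sign of 49.7% of these genes, beside 43.1% of all genes, and at 2 months of 68.4%, beside 54.2%. Genes are not independent replicates, and these shares are given without a test.

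**Figure D5:**
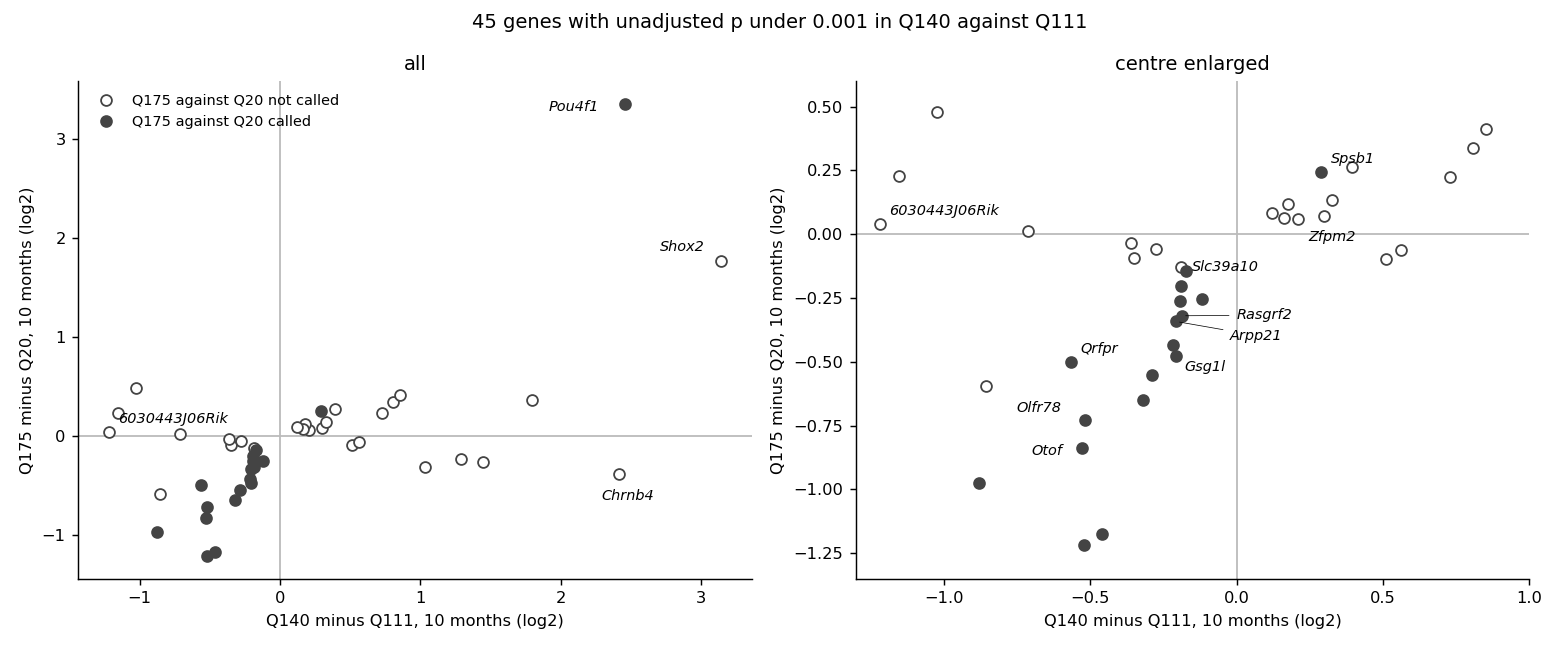
Log2 difference of Q140 minus Q111 (horizontal) and of Q175 minus Q20 (vertical) at 10 months for the 45 genes with an unadjusted p under 0.001 in Q140 against Q111, with the centre enlarged at right. Filled points passed the adjusted threshold in Q175 against Q20, among them 16 of the 25 genes that were lower in Q140.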

How the data were processed

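The authors deposited 1 table of estimated counts per gene and 1 table of FPKM for the 168 libraries, with 39179 gene IDs, of which 37607 have a symbol in GENCODE M21 (GRCm38); the IDs without one hold 0.318% of counts. Per the submitters' processing notes, CASAVA 1.8.2 was used; aligner, quantifier, build and treatment of shared reads: not given in the sources used here. The deposited estimated counts (17.7% of values not whole) were rounded, and FPKM served only in alternatives. Every column was tied to a sample. Genes were filtered (filterByExpr, minimum count 10, minimum total 15), scaled by TMM and fitted with edgeR 4.0.16 in R 4.3.3 (quasi-likelihood, robust, two-sided) over all 56 libraries of 10 months with sex as a covariate. Q140 minus Q111 was a contrast, Benjamini-Hochberg adjusted over all genes tested, threshold 0.05. The fits of 6 months, 2 months, sex, age and Q175 minus Q20 were alike. The functions were tested on simulated data.

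Named genes were those passing on each side, or the 5 with the smallest p where fewer passed, from each list the 3 of smallest p, Htt, and called genes within 20 Mb of it; models with clone names are named only where called, close to such a gene, or chosen for their values. The members and lists were chosen with earlier results of these data known. Library pairs within a group differed by more than counting noise (chi-square per degree of freedom at least 5.94). Alternatives were DESeq2 1.42.0, its size factors, no filter, only the 2 groups, no sex term, a replicate block, a term for the L number in library names, limma 3.58.1 on log2(FPKM + 0.1) and log2(FPKM + 1), voom with quality weights, and leaving out libraries; leaving out sets of 2 to 5 libraries was chosen after seeing the data. Values of some list members are not reported here.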

Additional observations from a re-analysis of the deposited data

Results flagged for a closer look

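Among 24 groups of 8 libraries (12 genes in Q140 and in Q111), 4 held a library whose gap to its nearest neighbour was large for the range of its group; chance flags about 1 in 20 groups. Chrnb4 stood at 4.30 CPM in Q140 male 3, with male 2 at 2.04 CPM and the other 6 at up to 0.523 CPM. Htt stood at 97.3 CPM in Q140 female 3, beside 156 to 185 CPM in the other Q140 libraries. In Q111 male 3, Qrfpr was at 4.78 CPM, above 3.36 to 3.92 CPM in the other Q111 libraries, and 6030443J06Rik was at 0.415 CPM, below 1.39 to 1.99 CPM in them.

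The Q140 minus Q111 difference differed between 10 and 6 months by the interaction test for 3 named genes. The difference at 10 months minus that at 6 months was 3.22 for Chrnb4 (adjusted p = 0.0185, edgeR), -0.58 for Olfr78 (adjusted p = 0.0331) and -0.58 for Qrfpr (adjusted p = 0.0175). Library series and allele cannot be told apart at 6 months.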

How the results depend on the processing

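The 5 calls of Q140 against Q111 at 10 months became 9 with DESeq2 and 11 with voom, and 0 in the fit of the 2 groups alone, with the L number as a term, and with limma on log2(FPKM + 0.1) without a filter. Among the 16 libraries, L4 and L7 held only Q140 and L6 and L8 only Q111. The L number and the allele are thus partly tied at 10 months. Libraries left out one at a time gave 0 to 6 calls; sets left out after seeing the data gave 0 without Q140 males 2 and 3, 0 without these and Q140 female 3, 2 (6030443J06Rik and Olfr78) without Q111 males 3 and 4, and 0 without all 5. DESeq2 size factors, no filter, no sex term, leaving out Q140 female 3 and limma with a filter gave 4 or 5. The signs of the 5 called genes held in all of these fits that tested them. Chrnb4 reversed to -0.26 without Q140 males 2 and 3 and female 3. At 6 months 217 calls became 129 in the 2 groups alone. At 2 months 0 became 1 without libraries correlating under 0.99. The sex interaction went from 0 to 1 call with DESeq2, and the age interaction from 74 to 27 in the 4 groups alone. The cause was not tested in any of these, beyond fewer samples where samples were left out. Same-numbered libraries of Q140 and Q111 had correlations of their deviations from -0.112 to 0.189, and 4 of 8 Q140 libraries matched their own number best, a mixed hint from the data; not every pair was above 0.1 and no label states a pairing, so no block was used. With the replicate block 10 months had 0 calls, 6 months 364, 2 months 0 and Q175 against Q20 1809. No 6-month library fell under a correlation of 0.99, and a library series term for the age interaction was not run. Genes near or under 1 CPM rest on few counts per library, which limits Shox2, Chrnb4 and 6030443J06Rik.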
